A study of Mus musculus with 5 samples.

Results

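Serpins are a family of structurally related proteins, most of which inhibit serine proteases. Every probe whose accession led to a mouse gene symbol starting with Serpin was taken as a member, pseudogenes included, and the genes were grouped by the clade letter in their symbol, from Serpina to Serpini. The rule found 71 of the 55681 distinct probes on the array, for 58 genes. Of these genes, 34 gave a signal that could be tested and 24 did not.

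An inhibitory serpin presents a flexible reactive centre loop as bait. When a protease cleaves the loop, the serpin folds around it and traps the enzyme in an inactive complex, so each inhibitor molecule is used once. Hepatocytes secrete most serpins of blood plasma, among them alpha-1 antitrypsin, antithrombin, heparin cofactor II, alpha-2 antiplasmin and C1 inhibitor. Some members have lost inhibition and carry hormones or fold collagen, and clade B members mostly stay inside cells. Mice carry several copies of genes such as Serpina1 and Serpina3 that are single in humans.

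The study asked how liver transcripts differ when hepatocytes overexpress Fra-1, a member of the FOS family and part of the AP-1 transcription factor, during high-fat feeding. Liver RNA of 4 Fra-1hep mice, labelled with Cy5, was hybridised on 1 two-colour array per mouse against a Cy3-labelled pool from 5 wild-type control mice. A further array compared pooled RNA of both genotypes with the dyes exchanged, so that Fra-1hep was in Cy3. All mice were C57BL/6J, aged 26 to 28 weeks, and ate a diet with 45% of its calories from fat from the age of 4 weeks. Fra-1hep mice are described as overexpressing Fra-1 only in hepatocytes; the promoter that drives it and the mice that entered the Fra-1hep pool are not given in the sources used here. Controls exist only as a pool, so the array values hold no spread among control mice, and the swapped pools may add no animal to the 4.

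All values below are log2 ratios of Fra-1hep over control, with the sign of the swapped array turned. A fitted change is the genotype term of a limma model with a dye term, given ± its standard error. It rests on 4 mice and 1 swapped array, which carries the same weight as the mice together. A change passed at a Benjamini-Hochberg adjusted p under 0.05 over the 21494 features tested. The median standard error was 0.0662, and between 47.2% and 61.5% of spots were well above background in a channel. The Fosl1 probe, for Fra-1 itself, exceeded background on 0 of 5 arrays in Fra-1hep RNA and on 1 in control RNA, so it did not check the labels. Of 12 hepatocyte markers, all were above background in both channels of all 5 arrays. Because whole livers were used, a smaller number of cells of a type and less RNA per cell cannot be told apart.

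Promoter windows from RefSeq (GRCm38.p6, 250 bases before and 50 after each start, on the gene's strand) are printed for the Serpina1 copies and Serpinb8. Their values turn on the dye orientation and most of them hold an AP-1 motif, TGANTCA, which reads the same on both strands and is in capitals. Every tested Serpin gene with the motif is among them, so its share in the printed windows is not a result. Serpinc1, whose sign also turns on the dye orientation, is not printed. The windows are chr12:103863570-103863869 (minus strand) for Serpina1a, chr12:103904901-103905200 (minus) for Serpina1c, chr12:103773584-103773883 (minus) for Serpina1d, chr12:103956848-103957147 (minus) for Serpina1e and chr1:107589756-107590055 (plus) for Serpinb8.
Serpina1a: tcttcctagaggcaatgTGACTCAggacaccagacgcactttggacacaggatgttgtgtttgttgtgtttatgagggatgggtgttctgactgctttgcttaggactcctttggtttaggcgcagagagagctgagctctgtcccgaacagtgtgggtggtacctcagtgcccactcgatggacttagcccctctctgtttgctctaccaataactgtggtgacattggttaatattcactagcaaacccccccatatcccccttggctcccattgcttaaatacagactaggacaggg
Serpina1c: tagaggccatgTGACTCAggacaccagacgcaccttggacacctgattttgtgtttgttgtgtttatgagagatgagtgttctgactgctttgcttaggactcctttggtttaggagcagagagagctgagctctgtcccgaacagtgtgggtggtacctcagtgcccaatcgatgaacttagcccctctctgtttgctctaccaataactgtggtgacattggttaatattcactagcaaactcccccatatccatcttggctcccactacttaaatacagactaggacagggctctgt
Serpina1d: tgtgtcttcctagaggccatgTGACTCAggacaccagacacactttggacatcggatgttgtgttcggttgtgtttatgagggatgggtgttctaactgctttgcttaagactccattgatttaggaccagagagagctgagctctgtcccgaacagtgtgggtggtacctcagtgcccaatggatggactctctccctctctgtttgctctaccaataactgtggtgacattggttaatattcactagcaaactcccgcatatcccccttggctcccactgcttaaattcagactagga
Serpina1e: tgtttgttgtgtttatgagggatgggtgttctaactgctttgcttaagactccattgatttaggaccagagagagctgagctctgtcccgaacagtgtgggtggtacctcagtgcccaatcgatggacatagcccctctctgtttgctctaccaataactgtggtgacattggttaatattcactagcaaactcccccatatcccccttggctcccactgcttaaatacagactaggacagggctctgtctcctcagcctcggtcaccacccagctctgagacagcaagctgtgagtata
Serpinb8: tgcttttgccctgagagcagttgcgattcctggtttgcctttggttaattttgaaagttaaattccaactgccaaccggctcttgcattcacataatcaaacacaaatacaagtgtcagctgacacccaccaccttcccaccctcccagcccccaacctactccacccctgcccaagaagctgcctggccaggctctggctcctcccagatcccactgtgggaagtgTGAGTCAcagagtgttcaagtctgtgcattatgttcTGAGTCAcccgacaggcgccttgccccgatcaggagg
Counted from the gene's start, the motif begins at -233 in Serpina1a, -239 in Serpina1c and -229 in Serpina1d, and the window of Serpina1e, which holds no match, lies further downstream within the shared sequence. The Serpina1 windows were 91.7% to 96.2% identical over their aligned bases. Serpinb8 had matches that begin at -23 and 14.

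A pair of Serpina3 windows are shown because they are near copies whose genes gave different changes. They lie at chr12:104153823-104154122 (minus) for Serpina3c and chr12:104406458-104406757 (plus) for Serpina3n, and were identical at 275 of 294 aligned bases (93.5%).
Serpina3c: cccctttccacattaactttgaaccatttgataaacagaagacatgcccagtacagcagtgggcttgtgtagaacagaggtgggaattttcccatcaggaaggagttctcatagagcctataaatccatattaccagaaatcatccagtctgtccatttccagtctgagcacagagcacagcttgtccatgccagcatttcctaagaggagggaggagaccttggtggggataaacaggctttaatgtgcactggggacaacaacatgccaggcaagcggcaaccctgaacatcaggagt
Serpina3n: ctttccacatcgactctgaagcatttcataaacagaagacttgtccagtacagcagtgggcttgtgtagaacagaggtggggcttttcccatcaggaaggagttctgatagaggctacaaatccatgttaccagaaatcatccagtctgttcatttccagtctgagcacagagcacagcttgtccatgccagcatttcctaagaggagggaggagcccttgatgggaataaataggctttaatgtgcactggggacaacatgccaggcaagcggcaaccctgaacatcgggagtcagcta
Neither holds the AP-1 motif. Over all 32851 windows in the RefSeq table, 7.81% held TGANTCA. Of the 57 windows of Serpin genes 11 did (19.3%), and among the 25 tested genes with a window these were Serpina1a, Serpina1c, Serpina1d and Serpinb8. The Serpin windows include near-identical copies and do not count as separate cases. The cyclic AMP response element TGACGTCA was in 1.79% of all windows and in 0 Serpin windows. TTCNNNGAA, the core bound by STAT factors, was in 8.3% of all windows and in 9 Serpin windows (15.8%), with Serpina11, Serpina1f, Serpina3f and Serpinb6a among the tested genes. The share in Serpin windows was thus above that of all windows for more than the AP-1 motif. All motifs were searched on both strands; a match describes the letters and does not show binding.

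In Fra-1hep livers Serpin transcripts changed in both directions. Of the 34 tested genes, 7 rose, 9 fell and 18 did not pass. The called share of 47.1% compares with 26.6% of all features and 30.5% of named genes; 20.6% were higher against 11.2% of all features, and 26.5% lower against 15.4%. The median change over the tested members was -0.05, beside -0.00342 over all features. Changes past the threshold of at least 0.5 numbered 9, beside 7.52% of all features, and ran from -3.21 in Serpina4-ps1 to 1.01 in Serpina3k. Of the 16 called genes, 13 (81.2%) had the same sign on all 5 arrays, close to the share over all features, where 4759 of 5717 called features did (83.2%, or 22.1% of those tested). The other 3 were Serpina1a, Serpina1d and Serpinb8. With standard errors enlarged for a spread among the 5 pooled controls like that of the Fra-1hep mice, 4 rose and 9 fell, beside 13.2% of all features called. The calls of Serpina1a (adjusted p = 0.0787), Serpinb8 (0.0727) and Serpinf2 (0.0651) then ended. From the 4 mice alone, without the swapped array, 10 Serpin genes rose and 13 fell, beside 35.9% of all features.

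**Figure D1:**
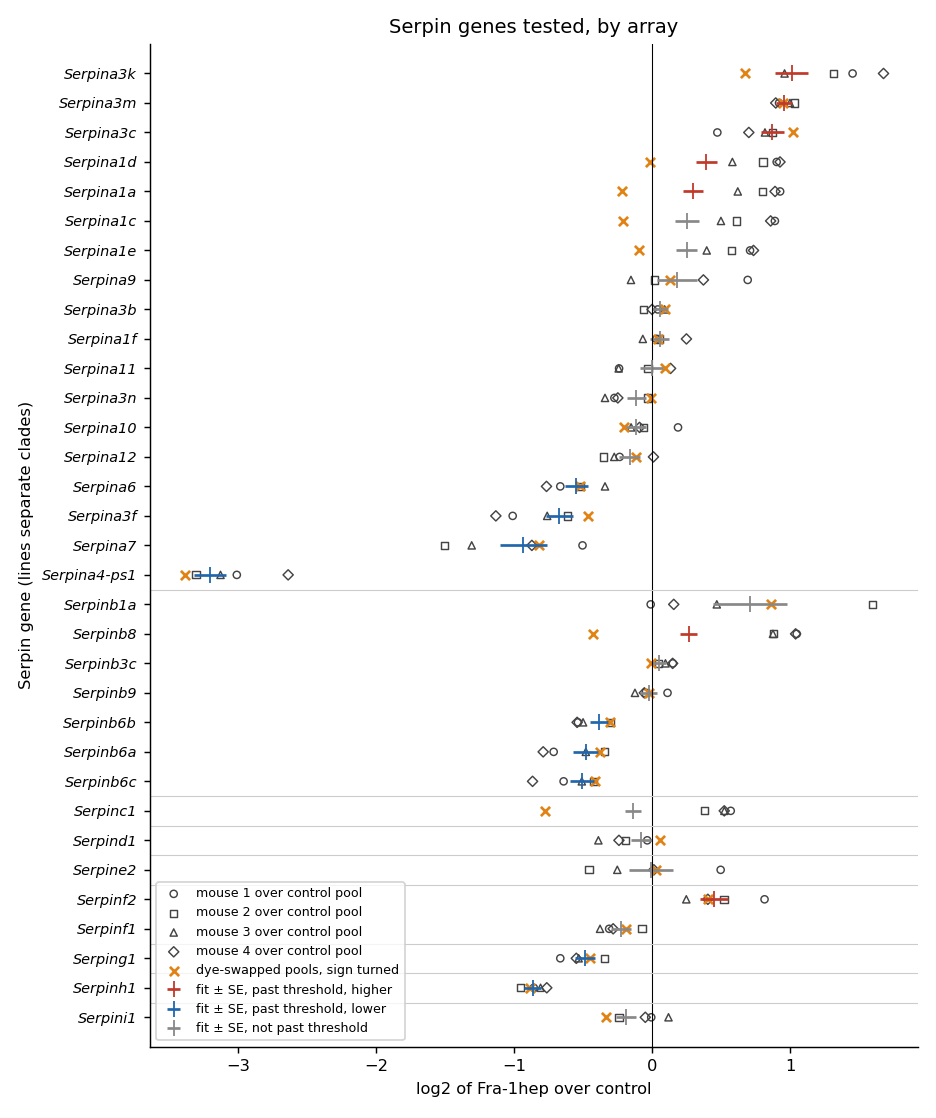
The log2 ratio of Fra-1hep over control (horizontal axis) is plotted for the tested Serpin genes reported here, grouped by clade, with open symbols for mice 1 to 4, crosses for the dye-swapped pools and bars for the fitted change ± SE coloured by call. Serpina4-ps1 lies below -2.6 on all 5 arrays, while the crosses of Serpina1a, Serpinb8 and Serpinc1 lie on the other side of zero from their mice.

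Clades A and B differed in how many members gave a signal, while both of their medians lay near zero. Clade A had 18 of 21 genes tested, with 5 higher, 4 lower and 9 not passing and a median of 0.05. Clade B had 7 of 27 tested, with 1 higher, 3 lower and 3 not passing and a median of -0.03. Both medians lay on genes that did not pass. The ratios of clade A ran from -3.21 to 1.01 and those of clade B from -0.51 to 0.70. Of the other clades, which have 1 or 2 members each, those reported here were Serpinf with a median of 0.11, Serpind -0.08, Serpinc -0.14, Serpini -0.19, Serping -0.49 and Serpinh -0.87. Differences between clades were not tested, and most of the small clades rest on a single gene.

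Among the Serpina3 copies, relatives of human antichymotrypsin, 3 of 6 tested genes rose and 1 fell, with a median of 0.46. Serpina3k encodes a protein known in rodents as a binding protein of tissue kallikrein. Its ratios were 1.45, 1.31, 0.96 and 1.67 in mice 1 to 4, against 0.67 in the pool with swapped dyes. All 5 were above zero, with the pool below each mouse. The fitted change was 1.01 ± 0.12 (adjusted p = 0.00185), a 2.01-fold rise, or 1.35 from the mice alone. Its dye term, 0.5 times the difference between the mean of the mice and the pool, was 0.34 and did not pass (adjusted p = 0.173).

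Serpina3m, next to it among the protein-coding genes of the cluster, had ratios of 0.92, 1.03, 1.00 and 0.89 in the mice and 0.95 in the pool. Mice and pool lay close together. The fitted rise was 0.95 ± 0.06 (adjusted p = 9.4e-05), 1.93-fold. Serpina3c gave 0.47, 0.87, 0.82 and 0.70 in the mice and 1.02 in the pool, a rise of 0.87 ± 0.08 (adjusted p = 0.000717), 1.82-fold. Here the pool stood above every mouse, opposite to its place in Serpina3k.

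Serpina3f went down. Its ratios were -1.01, -0.61, -0.76 and -1.14 in the mice and -0.47 in the pool, with a fitted change of -0.67 ± 0.10 (adjusted p = 0.00418), 1.6-fold lower. Serpina3n, an inhibitor of granzyme B and neutrophil elastase that rises in the acute phase, gave -0.28, -0.04, -0.34 and -0.25 in the mice and -0.01 in the pool. The fitted change of -0.12 ± 0.07 did not pass (adjusted p = 0.259), although the mice alone gave -0.23 (adjusted p = 0.0296). Serpina3b lay at 0.05 ± 0.06 (adjusted p = 0.517). The ranges of Serpina3c and Serpina3n did not overlap on the 5 arrays. This pair was picked because its changes differed, so the gap is not a separate result. Their windows printed above were identical at 93.5% of aligned bases and differ at the others. Neither the difference between the genes nor a part of these bases in it was tested. Serpina3a and Serpina3j had probes that could not be tested. Copies of this group resemble each other, so a probe may read several of them and each single value is uncertain; the same holds for the Serpina1, Serpinb6 and Serpinb9 copies.

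The Serpina1 copies encode alpha-1 antitrypsin, the plasma inhibitor of neutrophil elastase. Serpina1a gave 0.92, 0.80, 0.62 and 0.89 in mice 1 to 4 but -0.22 in the pool. Serpina1c gave 0.89, 0.61, 0.50 and 0.86 in the mice and -0.21 in the pool. Serpina1d gave 0.90, 0.80, 0.58 and 0.92 in the mice and -0.02 in the pool. For each, every mouse was above zero and the pool was not. Serpina1e repeated the pattern at 0.71, 0.57, 0.39 and 0.73 against -0.10, and Serpina1f, near background, did not (0.05 ± 0.07, adjusted p = 0.618).

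In the fit that weighs both dye orientations equally, 2 of these 5 passed. Serpina1d rose by 0.39 ± 0.08 (adjusted p = 0.0116) and Serpina1a by 0.29 ± 0.07 (adjusted p = 0.0238). Serpina1a did not pass without mouse 4 (0.28, adjusted p = 0.0548). Serpina1c at 0.25 ± 0.09 (adjusted p = 0.0719) and Serpina1e at 0.25 ± 0.08 (adjusted p = 0.0502) missed the threshold. From the mice alone the 4 ratios averaged 0.81, 0.71, 0.80 and 0.60 for Serpina1a, Serpina1c, Serpina1d and Serpina1e, and all passed (adjusted p from 0.000219 to 0.000961). The mice alone thus gave larger changes than the balanced fit for all 4. The second probes of Serpina1a (0.22) and Serpina1d (0.35) gave similar fitted changes, while that of Serpina1e gave 0.07 (adjusted p = 0.558).

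The disagreement was measured directly by the dye term. It was 0.51 for Serpina1a (adjusted p = 0.0111), 0.46 for Serpina1c (adjusted p = 0.0338), 0.41 for Serpina1d (adjusted p = 0.0341) and 0.35 for Serpina1e (adjusted p = 0.0531). These 4, with Serpina3k and Serpinc1, were the Serpins among the brightest 1% of features. In that 1%, 215 features, the dye term had a median of 0.40, was above zero in 98.6% and passed in 54%, against 4.15% of all features. Hepatocyte markers, 12 genes, had list medians of 0.48, 0.46, 0.24 and 0.43 in the mice against -0.16 with swapped dyes. A dye effect and a difference between the Fra-1hep pool and the 4 mice cannot be told apart with 1 swapped array.

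**Figure D2:**
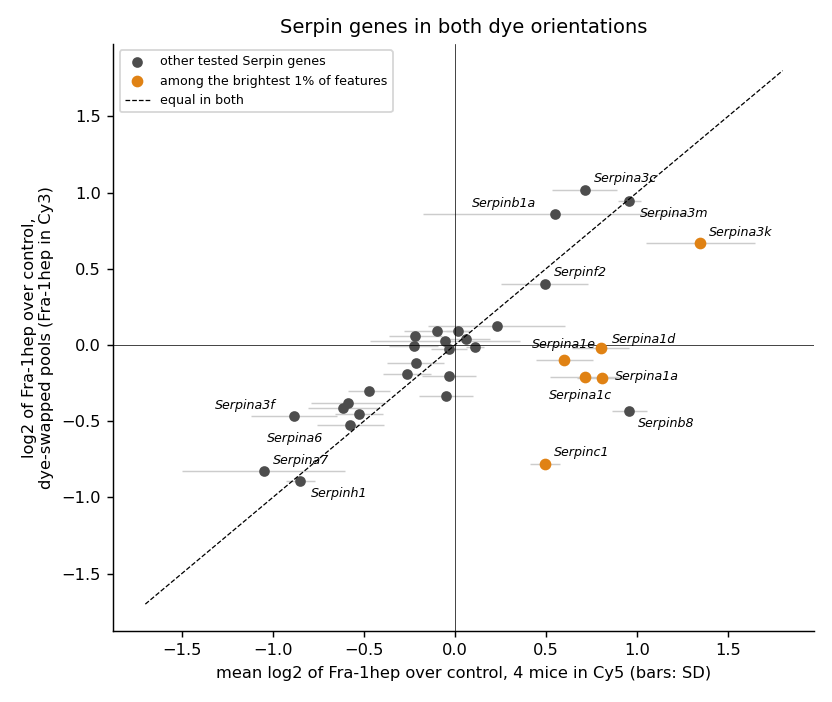
Each point is a tested Serpin gene reported here, with the mean log2 ratio of the 4 mice ± SD on the horizontal axis and the ratio of the dye-swapped pools on the vertical axis; Serpina4-ps1 (-3.02 and -3.39) is outside the range and left out. Genes among the brightest 1% of features (orange) and Serpinb8 lie below the dashed line of equal values.

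Antithrombin, the heparin-dependent plasma inhibitor of thrombin and factor Xa encoded by Serpinc1, also gave opposite signs in mice and pool. Its ratios were 0.57, 0.38, 0.52 and 0.52 in the mice and -0.78 in the pool. The fitted change was -0.14 ± 0.06 and did not pass (adjusted p = 0.122). Without the swapped array it was 0.50 (adjusted p = 0.000756), so its direction depends on that array; the dye term was 0.64 (adjusted p = 0.0018). Heparin cofactor II, encoded by Serpind1, lay at -0.08 ± 0.07 (adjusted p = 0.462), with -0.04, -0.19, -0.39 and -0.24 in the mice and 0.06 in the pool.

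The remaining clade A genes included the largest fall of the family. Serpina4-ps1, a transcribed pseudogene by its annotation and the mouse relative of human kallistatin, gave -3.01, -3.31, -3.13 and -2.64 in the mice and -3.39 in the pool. It was above background in both channels of every array. The fitted change of -3.21 ± 0.11 (adjusted p = 1.81e-05) is a 9.23-fold fall. The next largest change of the family was the rise of Serpina3k.

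Both hormone carriers of clade A fell. Serpina6, corticosteroid-binding globulin, gave -0.67, -0.52, -0.34 and -0.77 in the mice and -0.53 in the pool. All 5 values were below zero, and the change was -0.55 ± 0.08 (adjusted p = 0.00466), 1.47-fold, with -0.52 at its second probe. Serpina7, thyroxine-binding globulin, whose gene is the X-linked member of the clade, gave -0.51, -1.50, -1.31 and -0.87 in the mice and -0.82 in the pool. Its change was -0.94 ± 0.17 (adjusted p = 0.00893), 1.91-fold, with an SD of 0.45 among the mice; in the deposited table of log2 ratios it just missed the threshold (-0.98, adjusted p = 0.0508). Agt, angiotensinogen, a serpin by fold under another symbol, lay at 0.05 ± 0.07 (adjusted p = 0.596).

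Other clade A members did not pass. Serpina9, known from germinal centre B cells, lay at 0.18 ± 0.15 (adjusted p = 0.414). Serpina12, the adipokine vaspin, lay at -0.17 ± 0.08 (adjusted p = 0.152). Serpina10, the protein Z-dependent inhibitor of factor Xa, gave -0.12 and 0.05 at its 2 probes. Serpina11 lay at 0.00. Serpina5, the protein C inhibitor, was not tested.

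On chromosome 12 the clade A genes form a cluster of 28 genes and pseudogenes in the annotation, 17 of which were tested. Risen and fallen genes were interspersed along it, with Serpina1d and Serpina1a as risen neighbours. Serpina4-ps1 lay between Serpina12, which did not pass, and Serpina5, which was not tested. Serpina3f, which fell, lay between the risen Serpina3c and Serpina3k, with untested members between them.

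**Figure D3:**
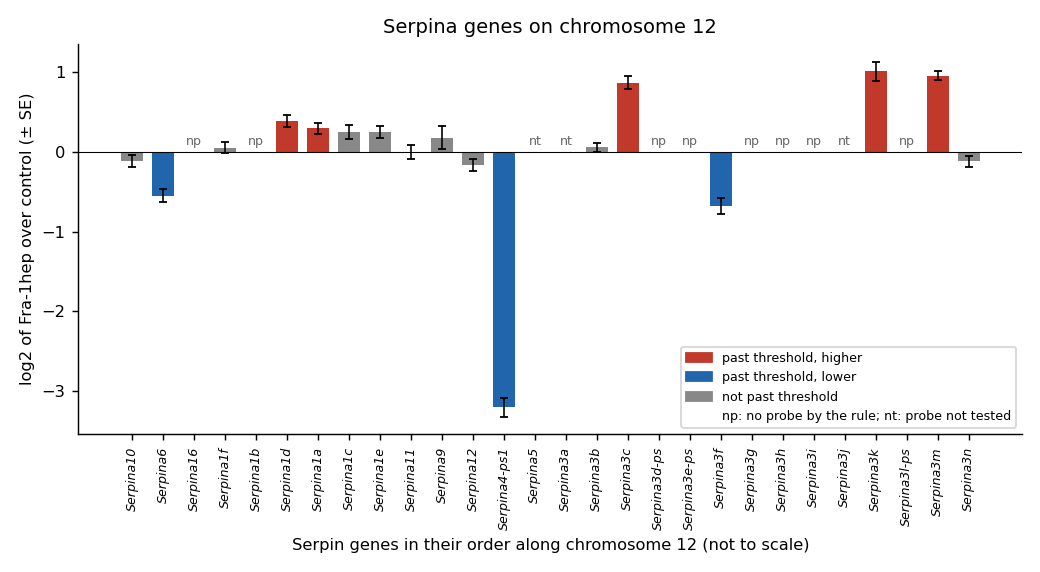
Bars give the fitted log2 ratio of Fra-1hep over control (vertical axis, ± SE) for the tested clade A genes on chromosome 12. All 28 genes and pseudogenes stand in their order along it, not to scale. Those without a bar are marked np (no probe by the rule) or nt (probe not tested). The bar of Serpina4-ps1 reaches -3.21 while the 2 tested genes on either side lie between -0.17 and 0.87.

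In clade B, the intracellular serpins, the Serpinb6 copies fell together. Human SERPINB6 inhibits cathepsin G and other proteases inside leukocytes and epithelial cells. Serpinb6c gave -0.64, -0.43, -0.51 and -0.87 in the mice and -0.41 in the pool, a change of -0.51 ± 0.09 (adjusted p = 0.00666), 1.43-fold, and -0.37 at its second probe. Serpinb6a changed by -0.48 ± 0.09 (adjusted p = 0.00977) and Serpinb6b by -0.39 ± 0.07 (adjusted p = 0.00685). All 3 were below zero on all 5 arrays, lowest in mouse 4 and nearest to zero in mouse 2 among the mice. Macrophage markers had their list median lowest in mouse 4 (-0.89) and nearest to zero in mouse 2 (-0.08). Of 11 tested, 5 fell and 6 did not pass, beside 15.4% of all features lower. Their median was -0.54, and 3 fell with the control pool's spread. Stellate cell and fibroblast markers were likewise lowest in mouse 4 (-0.91) and nearest to zero in mouse 2 (-0.59). The part of either list in the Serpinb6 values was not tested.

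Serpinb1a encodes an inhibitor of the neutrophil proteases elastase, cathepsin G and proteinase 3. It gave -0.01, 1.59, 0.47 and 0.15 in the mice and 0.86 in the pool. Mouse 2 was the highest, and the change of 0.70 ± 0.27 did not pass (adjusted p = 0.0963); without mouse 2 it was 0.53 and passed (adjusted p = 0.0103). Of 11 neutrophil markers tested, 9 rose and 2 did not pass, with a median of 2.06, beside 11.2% of all features higher. The median of that list was 1.28, 2.98, 1.07 and 1.44 across mice 1 to 4 and 2.34 in the pool. Mouse 2 was highest and the pool next for both, but the order of the other mice differed. Of these, mouse 3 was the highest for Serpinb1a and the lowest for the markers. Whether Serpinb1a follows the neutrophil content was not tested.

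Serpinb8, whose human counterpart inhibits furin, gave 1.04, 0.88, 0.87 and 1.04 in the mice and -0.43 in the pool. The mice agreed closely with each other and not with the pool. The fitted change was 0.26 ± 0.06 (adjusted p = 0.0215), and the mice alone gave 0.96 (adjusted p = 5.3e-05). Its dye term of 0.70 (adjusted p = 0.00143) was the largest of the family, at a signal in the 86.1 percentile of features, below the bright group. The call also ended under median centring in place of loess (0.25, adjusted p = 0.0806). Serpinb3c, of the squamous cell carcinoma antigen group, lay at 0.05 and the granzyme B inhibitor Serpinb9 at -0.03; neither passed.

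The other 20 clade B genes with a probe were not tested, among them Serpinb2, plasminogen activator inhibitor 2, and Serpinb5, maspin. Together with Serpina3a, Serpina3j, Serpina5 and Serpini2 they account for the 24 untested genes. Of the 29 Serpin probes not kept, 25 were never well above background in either channel of an array. Their ratios ran from -0.27 to 0.34 and carry no order at this signal.

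The clades of extracellular inhibitors outside A gave 1 rise and 1 fall. Serpinf2, alpha-2 antiplasmin, the main plasma inhibitor of plasmin, gave 0.81, 0.52, 0.24 and 0.40 in the mice and 0.40 in the pool, a rise of 0.45 ± 0.10 (adjusted p = 0.0187), 1.36-fold. Serping1, C1 inhibitor, which restrains complement and contact proteases, gave -0.67, -0.35, -0.54 and -0.55 in the mice and -0.45 in the pool. It fell on all 5 arrays, by 0.49 on the log2 scale (SE 0.07, adjusted p = 0.00364), with -0.30 at its second probe. Serpinf1, pigment epithelium-derived factor, narrowly missed the threshold at -0.23 ± 0.07 (adjusted p = 0.0508), and its second probe gave -0.03.

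Serpine2, protease nexin 1, lay at -0.01 ± 0.16 (adjusted p = 0.967). Neuroserpin, encoded by Serpini1, lay at -0.19 ± 0.07 (adjusted p = 0.0997), with its Fra-1hep channel above background on 2 of 5 arrays.

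Serpinh1 encodes HSP47, a collagen chaperone of the endoplasmic reticulum that inhibits no protease. It gave -0.86, -0.95, -0.81 and -0.77 in the mice and -0.89 in the pool. Mice and pool lay close together, and the change was -0.87 ± 0.06 (adjusted p = 0.000164), a 1.83-fold fall. Of 13 genes for collagens and collagen-modifying enzymes, 7 fell, 1 rose and 5 did not pass, with a median of -0.31. Among all features 15.4% were lower and 11.2% higher. Col1a1 changed by -1.71 ± 0.15, Col1a2 by -1.62 ± 0.11, Col3a1 by -1.52 ± 0.13 and P4ha2, a collagen prolyl hydroxylase subunit, by -1.18 ± 0.11 (adjusted p from 0.00014 to 0.000585). General folding and export genes of the endoplasmic reticulum had 1 of 15 higher, 2 lower and 12 not passing, with a median of 0.03. Markers of stellate cells and fibroblasts, which make collagen and Serpinh1, had 8 of 10 lower and a median of -0.65. Col1a1, Col1a2 and Col3a1 are in both this list and that of the collagens, so the lists are not separate. The medians of the marker list ran from -0.91 in mouse 4 to -0.59 in mouse 2, with -0.85 in the pool. Serpinh1 itself was lowest in mouse 2 and nearest to zero in mouse 4. Among the mice, the collagen list had its median lowest in mouse 2 (-0.696) and nearest to zero in mouse 1 (-0.295). Col1a1, Col1a2 and Col3a1 had the same lowest and nearest mice as that median. The part of stellate cells and fibroblasts in the Serpinh1 value was not tested.

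Genes for the proteases that serpins meet also went both ways. Counts in these and the later lists are to be read against 11.2% higher, 15.4% lower and 26.6% called among all features. Without the swapped array 35.9% were called. Each list is small. Of 8 coagulation proteases, 3 rose, 1 fell and 4 did not pass; F11 changed by -0.52 ± 0.07 (adjusted p = 0.00224) and Proc, protein C, by 0.35 ± 0.06 (adjusted p = 0.00572). The rises numbered 1 without mouse 3 or with the control pool's spread. Of 5 fibrinolysis genes, 3 fell and 1 rose, and 1 fell with that spread. Plaur, the urokinase receptor, changed by -0.50 ± 0.09 (adjusted p = 0.00988). The other falls were in genes whose Fra-1hep channel was above background on 1 array each. With both channels required above background on all arrays 1 fell, and without the swapped array 2 fell. Of 5 complement proteases, 2 fell and 3 did not pass. C1s1, a target of C1 inhibitor, fell (-0.54 ± 0.08, adjusted p = 0.00434). Other complement targets of that inhibitor, C1ra (0.08), Masp1 (-0.18) and Masp2 (-0.06), did not pass. Fra-1hep RNA gave no signal above background for Cfd, adipsin, which was at least 10.7-fold lower in these livers (adjusted p = 5e-05). Of 9 leukocyte granule proteases, 4 rose, 1 fell and 4 did not pass. Ctsg, cathepsin G, rose by 1.58 ± 0.27 (adjusted p = 0.00716), with 2.50 in mouse 2 as its highest value. The rises of that list numbered 2 without mouse 4 and 1 with the pool's spread. With both channels required above background on all arrays, 1 rose. Some of the rises were in genes whose control channel was never above background. Of 7 cysteine proteases that some serpins inhibit, 4 fell and 3 did not pass, led by Ctss (-1.14 ± 0.10, adjusted p = 0.000585), a protease of antigen-presenting cells. Among 9 membrane and tissue serine proteases, 5 rose, 3 did not pass and Tmprss4 fell (-0.90 ± 0.17, adjusted p = 0.00997). The rises included Cela1 at 3.34 ± 0.08 (adjusted p = 4.03e-06) and St14, matriptase, at 2.89 ± 0.16 (adjusted p = 7.2e-05); with the pool's spread 3 rose. Cela1 is also a marker of pancreatic acinar cells; with it, 3 of 5 tested acinar markers rose, the others being Amy2a5 at 0.54 and Ctrb1 at 0.29; their part in the Cela1 value was not tested.

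Inhibitors of other families gave larger single changes than the serpins other than Serpina4-ps1. Spink1, a Kazal-type trypsin inhibitor, rose by 3.02 ± 0.07 (adjusted p = 3e-06), while its list of 6 had 2 higher and 2 lower. Of 9 cystatins, tissue inhibitors of metalloproteinases and whey acidic proteins, 6 fell and 3 did not pass, led by Wfdc2 (-2.21 ± 0.05) and Timp1 (-1.44 ± 0.07). Of the 3 tested relatives of alpha-2-macroglobulin, Mug1 (0.39), Mug2 (0.22) and Pzp (-0.20), each missed the threshold. Inter-alpha inhibitor genes had 2 of 6 higher, Itih5 (1.40 ± 0.14) and Itih2 (0.40 ± 0.07). Among 8 cofactor and clearance genes, Vldlr, a receptor that takes up serpin complexes, rose by 0.99 ± 0.06 (adjusted p = 0.000129) and Hrg, a heparin-binding plasma protein, by 0.72 ± 0.06. Of 7 other hormone carriers, 2 fell, 1 rose and 4 did not pass, with a median of 0.13, and 4 rose without the swapped array. Igfbp2 lay at -2.22 ± 0.13 and Rbp4 at 0.27 ± 0.07. Rbp4 gave 0.87 to 1.20 in the mice and -0.48 in the pool, and its call ended with the control pool's spread (adjusted p = 0.0997).

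**Figure D4:**
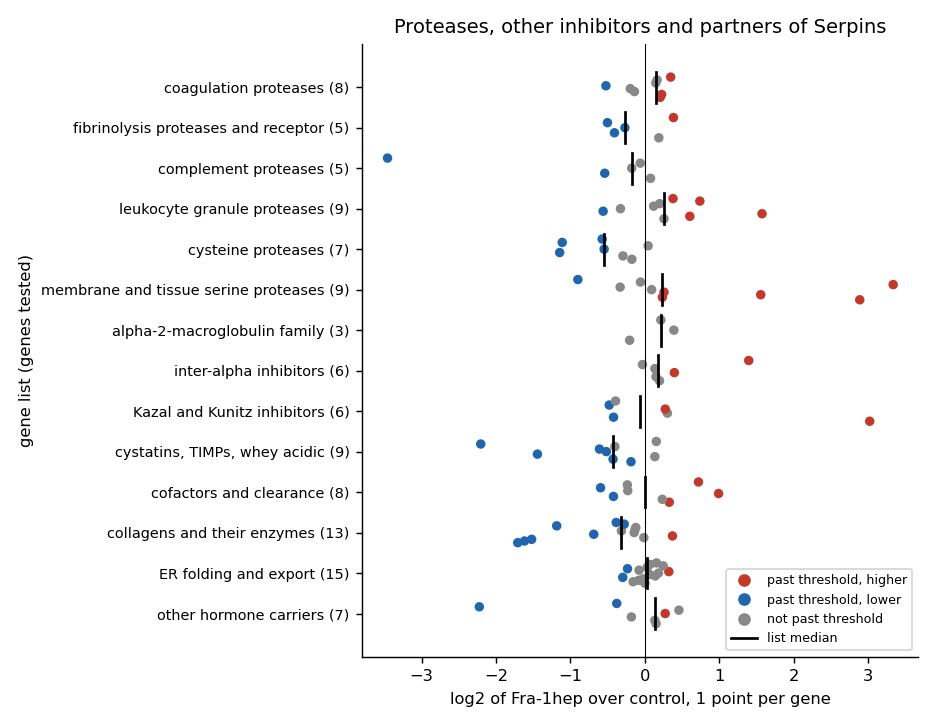
Each point is the fitted log2 ratio of Fra-1hep over control (horizontal axis) of 1 tested gene of a list, coloured by call, with the list median as a black line; the number of genes tested stands in brackets. Cysteine proteases (median -0.55) and cystatins with their neighbours (-0.43) lie mainly to the left, and the point at -3.46 is the fitted value of Cfd, whose Fra-1hep channel was not above background.

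Regulators that act on serpin genes in liver were read from the same arrays. Serpina3n and other acute phase genes respond to interleukin 6 through STAT3. Of 19 genes of that axis, 10 fell, 4 rose and 5 did not pass, with a median of -0.53. Among them Saa3 changed by -2.06 ± 0.10 and Fgb by 1.63 ± 0.06, with Serpina3n at -0.12 between them. The size for Fgb depends on the dye orientation, with 2.51 to 2.69 in the mice and 0.63 in the pool. Growth hormone signalling, known in rats to control a Serpina3 relative, had 3 of 10 genes lower and 7 not passing, near the share called over all features: Ghr (-0.38 ± 0.06), Igf1 (-0.53 ± 0.10) and Stat5a (-0.34 ± 0.07). Of 11 liver transcription factor genes, 2 rose and 9 did not pass, with Hnf4a at -0.16 among the latter. Of 11 AP-1 subunit genes tested, 7 fell and 4 did not pass, and 4 fell with the pool's spread. Small counts in these lists moved with single arrays. Without the swapped array, 2 fibrinolysis genes, 4 inter-alpha inhibitors, 3 folding genes and 2 relatives of alpha-2-macroglobulin rose. Without mouse 3, the rise among the collagen genes and both falls among the folding genes ended, and the fall among the granule proteases ended without mouse 2 or mouse 3. The rises among liver transcription factors numbered 1 without mouse 1 or without the swapped array.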

How the data were processed

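Spot intensities were extracted by the authors with Agilent Feature Extraction, version 10.7.3.1 per the file headers. The scanner files also hold processed signals and a log10 ratio of Cy5 over Cy3, deposited by the authors. A deposited table of log2 ratios matched the scanner ratios over 23066 probes (slope 1 on each mouse array, -1 with dyes swapped). It thus holds Fra-1hep over control, uncentred (column medians -0.042 to 0.133); further steps are not given in the sources used here.

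Median signals were background-corrected with normexp (offset 50, limma 3.58.1, R 4.3.3) and loess-normalized within arrays; 189 outlier spots were left out and 0 were saturated. The RefSeq table of GRCm38.p6 named 26056 probes by accession. Probes that 1 or both channels placed well above background on 3 or more arrays were kept (28049), and the brightest stood for its gene, giving 21494 features. limma's lmFit and eBayes fitted genotype and dye, adjusted by Benjamini-Hochberg. With 3 residual and 4.02 prior degrees of freedom, the spread comes from the 4 mice. The control pool counted as 1 control sample. The fit was tested on simulated data. The number of arrays limits the precision. Where a group was not above background on any array, the fold is a bound against the lowest signal above background.

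Members and lists were chosen with earlier results of these data known. Full values are given for changes of at least 0.5, clade extremes and all Serpina1 and Serpina3 copies, and for lists up to 4 members with the smallest p. Serpinb6a, Serpinb6b and Serpinb8 were chosen after their values were seen. Some members of the family and lists count in the totals but are not reported here. The closing section gives the alternatives tried. Promoter windows were aligned pairwise with Biopython 1.88.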

Additional observations from a re-analysis of the deposited data

Results flagged for a closer look

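In 5 Serpin genes all 4 mice lay on one side of zero and the dye-swapped pools on the other, and the dye term of the limma fit passed. The dye term was 0.513 for Serpina1a, 0.462 for Serpina1c, 0.411 for Serpina1d, 0.696 for Serpinb8 and 0.637 for Serpinc1, with adjusted p from 0.00143 to 0.0341. All but Serpinb8 were among the brightest 1% of features. Dixon's test, which with 4 values finds only extreme gaps, set no single mouse apart in any of the 34 genes.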

How the results depend on the processing

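Each of the 34 Serpin genes was refitted under up to 17 alternatives, and 22 kept their call (higher, lower or not passing) in all of those run. Among these, Serpina11, Serpinb9 and Serpine2, which did not pass and lay near zero, changed sign under some alternatives. With the control pool's spread added, 2846 features in all passed in place of 5717, and 4 Serpin genes rose in place of 7, while 9 still fell. Leaving out each mouse gave 4281 to 5488 features, 6 to 9 risen and 9 to 10 fallen Serpin genes. Over all alternatives 8 to 13 Serpin genes fell. Serpinc1 turned to 0.496 without the swapped array. In all, 4 genes lost a call under some alternative (Serpina1a, Serpina7, Serpinb8 and Serpinf2), and 7 gained one, the cause of which was not tested: Serpina12, Serpina1c, Serpina1e, Serpina3n, Serpinb1a, Serpind1 and Serpinf1. The clade A median was 0.21 with processed signals and 0.228 in the deposited values, beside 0.053. Serpini1 lay at -0.761 with processed signals. Requiring both channels above background on all arrays left 5 Serpin genes without a value. Mouse 1 had a slide and scan of its own, so a slide term gave the same fit as leaving it out, and all 34 Serpin calls held. No paired analysis was possible because the mice and the swapped pool share fewer than 2 replicate numbers. The 24 untested genes lay near background and give no information at this signal.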
